A study of Homo sapiens with 8 samples.

Results

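A set of 9 named genes of cytokine signalling was followed through drug treatment of BT-549, an established triple-negative breast cancer (TNBC) cell line: the kinases JAK1 and JAK2, the transcription factors STAT3, STAT5B and STAT6, the inhibitors SOCS1, SOCS2 and SOCS3, and the kinase PIM1. They are 9 of the 23228 genes in the count lists, chosen by symbol with earlier results of these data known. All 9 were among the 13694 genes that passed the filter on low counts. Cells in RPMI medium with FBS received vehicle (DMSO), the LIFR inhibitor EC359 at 100 nM, the histone deacetylase inhibitor (HDACi) vorinostat, also called SAHA, at 10 µM, or EC359 and vorinostat together at those doses (the combination). RNA was taken after 24 h, and each of the 4 groups had 2 sequenced libraries. The methods speak in general of biological replicates for cell culture work, but neither they nor the labels say for RNA-seq whether the libraries of a group came from separate cultures. The p-values therefore measure the spread between these libraries, which may be technical.

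LIFR binds leukemia inhibitory factor together with the shared receptor chain IL6ST (gp130), and JAK kinases on the tails of these chains then phosphorylate STAT3, which enters the nucleus and switches on target genes. SOCS3 is among those targets, binds gp130 and the JAKs and shuts the pathway down, so its mRNA is widely used as a readout of recent STAT3 activity. Phosphorylation is not seen in RNA counts, and what follows concerns transcript levels only.

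Between 19069450 and 24759041 reads per library fell on genes. The libraries of EC359 differed most from each other, with an SD of 0.563 for the log2 difference across genes against 0.312 to 0.448 in the other groups, and no pair agreed within sampling noise (chi-square per gene 2.25 to 46.8). Markers of the line were as follows: the mesenchymal genes VIM, FN1, CDH2 and SPARC were at 23.7 normalized CPM (the reads of a gene scaled to a common library size) or above in every group mean, ESR1 and PGR were at 0 in both vehicle libraries, the epithelial genes EPCAM and CDH1 were at 4.27 CPM or below in every library, and the immune and endothelial genes CD3E and PECAM1 were at 0.204 CPM or below in every library. The leukocyte gene PTPRC was at 0.708 CPM or below and the basal epithelial gene KRT5 at 1.56 CPM or below in every library. ESR1 had 20 and 11 reads in the combination libraries. ERBB2, the gene of the HER2 receptor, was at 99.1 CPM under vehicle and 12.3 under the combination. From vehicle to the combination, VIM went from 2111 to 9376 CPM, FN1 from 2613 to 4486 and CDH2 from 23.7 to 34.1. SPARC went from 3459 to 907. EPCAM was at 0.16 CPM under vehicle and 3.2 with vorinostat.

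More of these genes differed with vorinostat than with EC359 alone, as did more of all tested genes. A gene is said here to rise or fall where its adjusted p was under 0.01 (quasi-likelihood test of edgeR, adjusted by Benjamini and Hochberg's method over 13694 genes), and fold changes are on the log2 scale. EC359 lowered 2 of the 9 genes, STAT3 and SOCS3, against 4.01% of all tested genes lower. By edgeR it raised 0 of the 9, where 3.81% of all genes rose, and PIM1 was the 1 gene higher both at an unadjusted p under 0.05 and in DESeq2. Neither the STAT3 nor the SOCS3 change exceeded 1 on the log2 scale, the fold that the study's own rule asks for besides the p, where 3.67% of all genes passed both. Vorinostat raised 3 genes (STAT3, SOCS3, PIM1) and lowered 2 (STAT5B, STAT6), against 26.2% and 25.9% of all genes, and 4 of these 5 changes also passed the fold, as did 30.1% of all genes. The combination raised 4 against vehicle (STAT3, SOCS2, SOCS3, PIM1) and lowered STAT5B and STAT6, where 29.7% of all genes rose, 26.7% fell and 34.8% passed with the fold. Of the 6, STAT3 alone stayed under the fold.

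The combination was also set against each single drug, to ask what the other drug added. When EC359 was added to vorinostat, SOCS3 and PIM1 rose, against 8.45% of all genes, and neither passed the fold, as 4.25% of all genes did. By edgeR 0 of the 9 fell, where 5.26% of all genes did, with 1 (STAT3) lower at an unadjusted p under 0.05 and 0 lower in DESeq2. When vorinostat was added to EC359, the same 6 genes moved as in the combination against vehicle, 4 higher and 2 lower, all past the fold, against 29.5% higher, 26.3% lower and 33.7% past the fold among all genes. Against vehicle, the median log2 fold change of the 9 was -0.11 with EC359, 0.36 with vorinostat and 0.47 in the combination, where the medians of all tested genes were -0.02, 0.03 and 0.07. It was 0.34 for adding EC359 to vorinostat, beside -0.01 over all genes. These comparisons share libraries and are not independent of each other. As the libraries are from bulk cultures, fewer cells expressing a gene and less of its RNA per cell cannot be told apart.

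**Figure D1:**
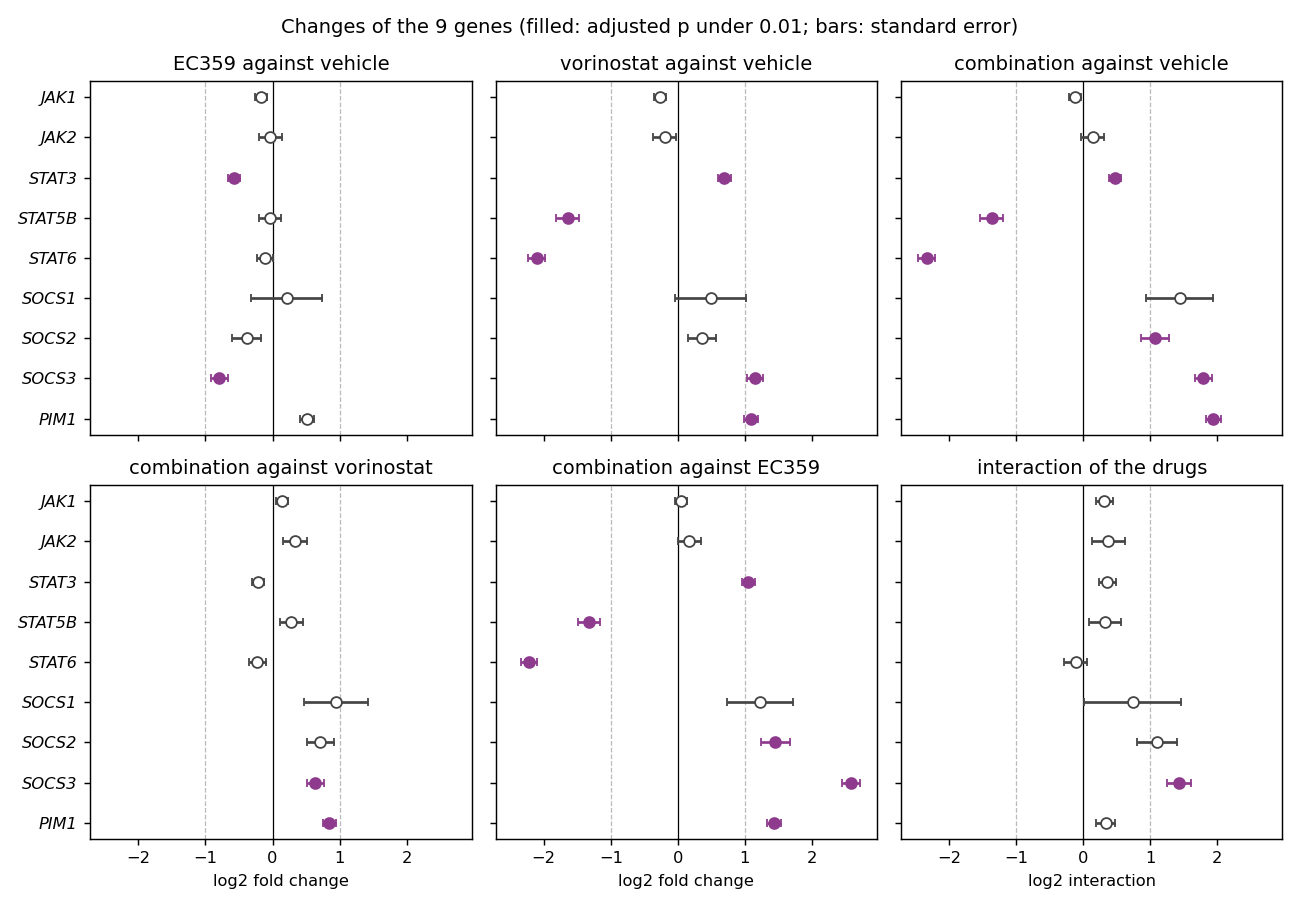
Log2 fold changes of the 9 genes (points) with their standard errors (bars) in 5 comparisons, and the log2 interaction of the drugs in the last panel. Filled points passed an adjusted p of 0.01 and dashed lines mark a change of 1; STAT5B and STAT6 lie far to the left wherever vorinostat is compared with its absence, and SOCS3 is the only filled point of the interaction.

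JAK1 and JAK2, kinases that start the pathway, passed the test in no comparison. JAK1, which is coupled to the gp130 receptors and lies on chromosome 1 from 65298906 to 65533437 (minus strand, GRCh37, the build that hg19 shares), had normalized CPM of 383 and 364 in the vehicle libraries, 353 and 308 with EC359, 305 and 317 with vorinostat, and 350.5 and 335 in the combination. Both vehicle libraries lay above all 6 treated libraries. The largest difference was that of vorinostat from vehicle, at -0.26 (standard error 0.0921, adjusted p = 0.0305). Its adjusted p was 0.000925 with the 4 vehicle and vorinostat libraries alone, a fit without the EC359 pair. The same difference was -0.275 without EC359 library 1 and -0.273 without EC359 library 2. The difference of the combination from EC359 was 0.05 and changed sign to -0.02 with total counts in place of TMM scaling.

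JAK2, the partner kinase on the LIFR and gp130 tails (chromosome 9 from 4984390 to 5129948, plus strand), was at 29.5 and 25.8 CPM under vehicle, 29.4 and 24.5 with EC359, 23.7 and 24.4 with vorinostat, and 35.6 and 25.3 in the combination. The vehicle, EC359 and combination libraries overlapped, both vorinostat libraries lay below the other 6, and the spread of the combination pair alone was wider than any difference between group means. Its adjusted p lay between 0.182 and 0.92 over the 5 comparisons. No order of the 4 groups could be read for JAK1 or JAK2, since none of their neighbouring group means differed at an adjusted p under 0.01.

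STAT3 moved in opposite directions under the drugs given alone. The gene of this central factor of LIFR signalling (chromosome 17 from 40465342 to 40540558, minus strand) had CPM of 242 and 247 under vehicle, 156 and 171 with EC359, 395 and 397 with vorinostat, and 359 and 319.8 in the combination. The libraries of the 4 groups did not overlap, with EC359 lowest and vorinostat highest. STAT3 fell by 0.58 with EC359 (standard error 0.0912, adjusted p = 0.00284), to 0.669 of the vehicle level. It rose by 0.70 with vorinostat (standard error 0.0909, adjusted p = 0.000141) and by 0.47 in the combination (0.0908, adjusted p = 0.00135). Between vorinostat and the combination the difference of -0.22 did not pass (adjusted p = 0.0979), nor did the interaction of 0.36 (adjusted p = 0.142).

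The fall of STAT3 with EC359 was -0.51 without EC359 library 1 and -0.63 without EC359 library 2. It missed the threshold without vehicle library 1 (adjusted p = 0.0305), vehicle library 2 (0.0393), vorinostat library 1 (0.015) or vorinostat library 2 (0.0149), and with the 4 vehicle and EC359 libraries alone (0.0464), at log2 changes of -0.59 to -0.56. The rise of STAT3 in the combination against vehicle missed it without vehicle library 1 (adjusted p = 0.0178), vehicle library 2 (0.0136) or combination library 1 (0.026, log2 change 0.34).

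STAT5B and STAT6 fell together wherever vorinostat was present. STAT5B, which acts downstream of growth hormone, prolactin and other cytokine receptors (chromosome 17 from 40351194 to 40440651, minus strand), was at 36.0 and 34.2 CPM under vehicle, 30.2 and 38.3 with EC359, 10.5 and 11.9 with vorinostat, and 15.4 and 11.9 in the combination. STAT6, the factor of interleukin-4 and interleukin-13 signalling (chromosome 12 from 57489191 to 57525922, minus strand), was at 58.0 and 56.9 under vehicle, 55.4 and 50.8 with EC359, 14.2 and 12.4 with vorinostat, and 10.9 and 11.8 in the combination. For both genes the 4 libraries with vorinostat lay far below the 4 without it.

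STAT6 fell by 2.11 with vorinostat (standard error 0.122, adjusted p = 1.23e-06), to 0.232 of the vehicle level, and by 2.33 in the combination (0.124, adjusted p = 5.22e-07). STAT5B fell by 1.64 (standard error 0.171, adjusted p = 3.46e-05), to 0.32 of the vehicle level, and by 1.36 in the combination (0.17, adjusted p = 8.83e-05). EC359 alone gave -0.11 for STAT6 (adjusted p = 0.542) and -0.04 for STAT5B (adjusted p = 0.9). Added to vorinostat it gave -0.23 for STAT6 (adjusted p = 0.212) and 0.28 for STAT5B (adjusted p = 0.262), so the order of the vorinostat and combination levels could not be read for either gene. These falls passed under every alternative setting and without any 1 library.

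The 300 bases around the start of the canonical GENCODE transcript, 250 before it and 50 after, are shown for this pair because they fell alike and differ in base composition. Capitals mark the spaced STAT6-type palindrome TTCNNNNGAA. The STAT5B window is chr17:40428360-40428659 and the STAT6 window chr12:57505096-57505395, both on the minus strand of GRCh37 and written 5′ to 3′.
STAT5B: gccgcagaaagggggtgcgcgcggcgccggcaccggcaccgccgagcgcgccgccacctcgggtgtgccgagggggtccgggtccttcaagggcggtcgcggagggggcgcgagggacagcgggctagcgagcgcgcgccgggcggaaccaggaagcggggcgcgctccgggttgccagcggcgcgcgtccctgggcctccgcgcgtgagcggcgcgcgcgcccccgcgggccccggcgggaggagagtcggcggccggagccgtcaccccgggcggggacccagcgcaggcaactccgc
STAT6: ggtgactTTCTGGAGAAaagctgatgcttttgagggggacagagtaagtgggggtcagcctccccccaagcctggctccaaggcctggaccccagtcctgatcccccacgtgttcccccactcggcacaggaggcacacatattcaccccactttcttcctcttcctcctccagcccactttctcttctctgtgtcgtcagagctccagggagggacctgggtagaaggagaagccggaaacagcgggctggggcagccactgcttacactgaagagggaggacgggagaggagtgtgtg
The STAT5B window had a GC content of 82% with 55 CpG dinucleotides and the STAT6 window 59.7% with 6, where the medians over 19533 such windows of protein-coding genes were 63.7% and 23. The STAT6 window held TTCTGGAGAA from -243 to -234 relative to the start, a match of letters that 4.86% of all windows have. No match to it stood in the STAT5B window. A match of letters is not evidence of a bound site, and its absence says only that these letters are not in the window.

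Genes on the opposite strand share exon bases with some members, and whether HTSeq counted by strand is not given in the sources used here. STAT5B shares 415 exon bases with STAT5A, which had at most 3 reads in any library. STAT6 shares 69 exon bases with NAB2 and 59 with LRP1, and JAK1 shares 10 with RAVER2. Reads in those bases could be assigned to either gene or left out.

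The inhibitors of the SOCS family differed from each other. SOCS3 (chromosome 17 from 76352859 to 76356158, minus strand) was at 38.5 and 41.0 CPM under vehicle, 20.0 and 26.0 with EC359, 88.6 and 88.0 with vorinostat, and 137 and 138 in the combination. The 4 groups did not overlap, and the libraries of vorinostat and of the combination lay close to their partners. For SOCS3 the 3 steps from EC359 up through vehicle and vorinostat to the combination each passed in the fit of all 8 libraries. How many of all tested genes have such an order was not counted.

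SOCS3 fell by 0.79 with EC359 (standard error 0.128, adjusted p = 0.00318), rose by 1.15 with vorinostat (0.124, adjusted p = 4.28e-05), and by 1.79 in the combination (0.126, adjusted p = 2.33e-06). EC359 thus lowered SOCS3 in cells without vorinostat and raised it, by 0.64 (standard error 0.121, adjusted p = 0.00514), in cells with it. The difference between these effects of EC359, the interaction of the drugs, was 1.43 (standard error 0.176, adjusted p = 0.00229), at which 1.62% of all genes passed above 0 and 0.482% below. Of the 9 members, SOCS3 was the only gene to pass it, and the median interaction of the 9 was 0.36, beside 0.02 over all genes. Against EC359 alone, SOCS3 was 5.99-fold higher in the combination.

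Fits without an EC359 library leave the pair that differed most out of the estimate of spread, and only effect sizes are given from them here. In them the SOCS3 fall with EC359 was -0.61 without EC359 library 1 and -0.98 without EC359 library 2. It missed the threshold without vehicle library 1 (adjusted p = 0.0256) or 2 (0.041), vorinostat library 1 (0.0138) or 2 (0.0136), or combination library 1 (0.0144) or 2 (0.0142), and with the 4 vehicle and EC359 libraries alone (0.064). The rise on adding EC359 to vorinostat missed it without vehicle library 1 (0.0141) or 2 (0.014), vorinostat library 1 (0.0724) or 2 (0.0716), or combination library 1 (0.0506) or 2 (0.0493), and with total counts (0.0151), at log2 changes between 0.55 and 0.64. The interaction missed it without vehicle library 1 (0.0163) or 2 (0.0212), vorinostat library 1 (0.032) or 2 (0.0314), or combination library 1 (0.0293) or 2 (0.0276), at values of 1.37 to 1.47. In the fits with a library left out, 7 libraries estimate the spread.

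**Figure D2:**
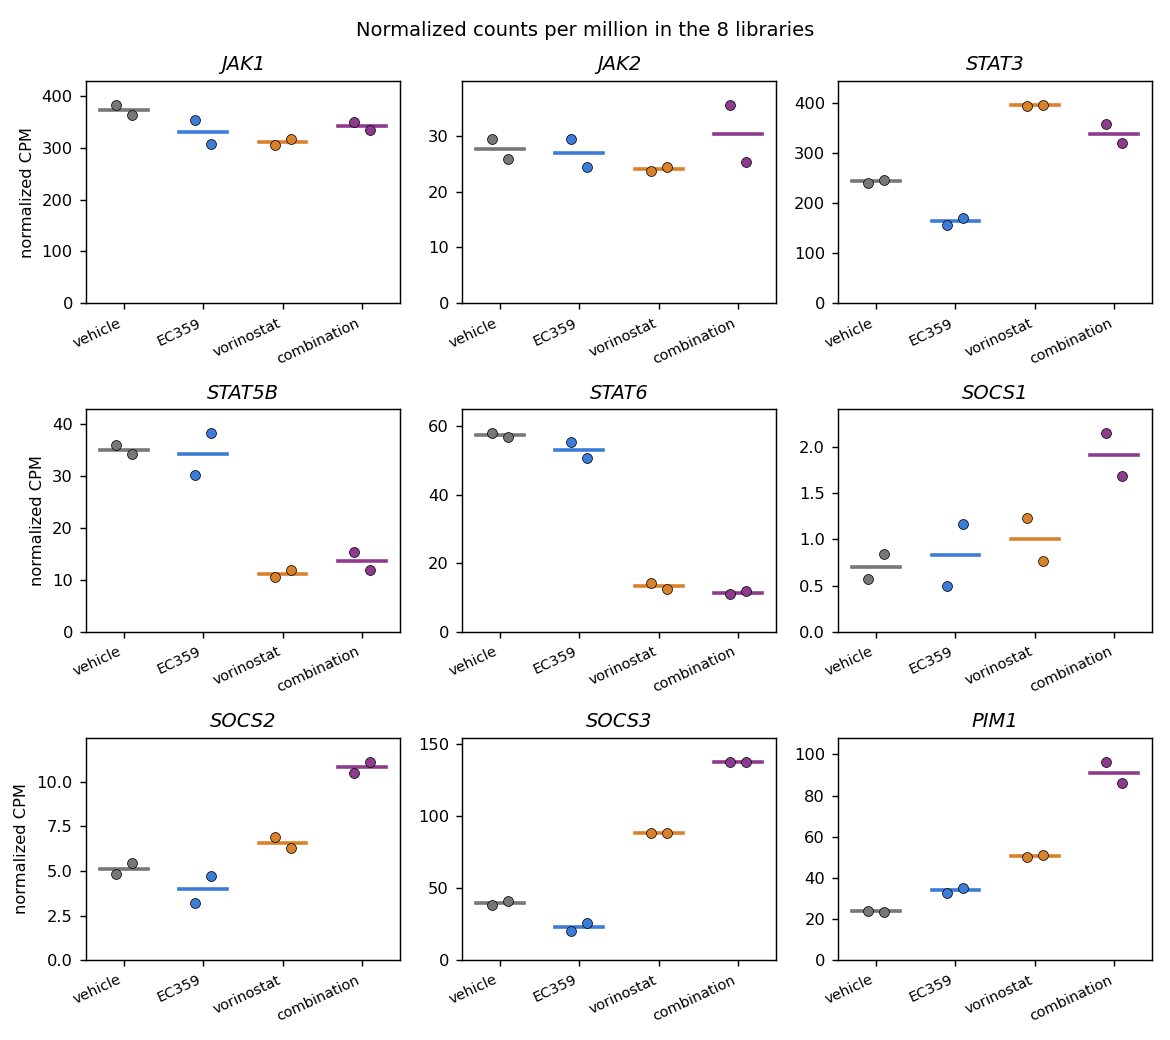
Normalized CPM of the 9 genes in the 8 libraries (points, 2 per group), with the group mean as a bar, on linear axes from 0. SOCS3 and PIM1 are highest in both combination libraries, STAT3 is highest with vorinostat and lowest with EC359, and STAT5B and STAT6 are low in the 4 libraries with vorinostat.

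PIM1, a serine/threonine kinase that promotes survival and a classic target of STAT3 and STAT5 (chromosome 6 from 37137928 to 37143204, plus strand), was above vehicle in all treated libraries, including those with EC359, where SOCS3 was below. Its CPM was 23.9 and 23.5 under vehicle, 32.5 and 35.3 with EC359, 50.1 and 51.2 with vorinostat, and 96.4 and 86.0 in the combination. The groups did not overlap, and the combination pair was the highest. PIM1 rose by 1.09 with vorinostat (standard error 0.105, adjusted p = 2.06e-05), by 1.94 in the combination (0.106, adjusted p = 5.75e-07), and by 0.85 on adding EC359 to vorinostat (0.102, adjusted p = 0.000539).

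With EC359 alone PIM1 differed from vehicle by 0.51 (standard error 0.105, adjusted p = 0.0107), just outside the threshold. That difference passed in DESeq2 (adjusted p = 0.00159), with RLE scaling (0.00919) and with no filter on low counts (0.00835). It was 0.58 without EC359 library 1 and 0.46 without EC359 library 2. The rise on adding EC359 to vorinostat missed the threshold without vorinostat library 1 (0.0191) or 2 (0.0162), or combination library 1 (0.0114), at log2 changes of 0.73 to 0.83. The interaction for PIM1 was 0.33 and did not pass (adjusted p = 0.217, unadjusted p = 0.0474). At this threshold a departure from the sum of the single-drug log2 differences was neither shown nor excluded.

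The promoter window of PIM1 is shown because the gene rose with vorinostat and rose again on adding EC359. It is chr6:37137678-37137977 on the plus strand of GRCh37, written 5′ to 3′.
PIM1: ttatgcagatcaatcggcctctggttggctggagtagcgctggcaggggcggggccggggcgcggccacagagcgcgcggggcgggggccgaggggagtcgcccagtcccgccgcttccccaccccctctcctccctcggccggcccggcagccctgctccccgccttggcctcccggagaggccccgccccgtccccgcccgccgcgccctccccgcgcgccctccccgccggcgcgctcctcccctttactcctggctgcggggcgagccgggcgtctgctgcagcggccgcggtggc
The GC content was 79.7%, with 39 CpG dinucleotides.

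SOCS2, an inhibitor best known for restraining growth hormone signalling (chromosome 12 from 93963590 to 93977263, plus strand), was at 4.82 and 5.46 CPM under vehicle, 3.22 and 4.72 with EC359, 6.89 and 6.29 with vorinostat, and 10.5 and 11.1 in the combination. Both combination libraries were above the other 6. SOCS2 rose by 1.07 in the combination against vehicle (standard error 0.207, adjusted p = 0.00139) and by 1.45 against EC359 (0.211, adjusted p = 0.000249). None of its 3 neighbouring steps passed, the largest being 0.71 between vorinostat and the combination (adjusted p = 0.0289).

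The rise of SOCS2 against vehicle missed the threshold without vehicle library 1 (adjusted p = 0.0175), combination library 1 (0.0101) or combination library 2 (0.0147). The step from vorinostat to the combination passed with the 4 libraries of those groups alone (adjusted p = 0.00391), and was 0.72 without EC359 library 1 or 2. The interaction for SOCS2 was 1.10 and did not pass (adjusted p = 0.0635). It was 0.84 without EC359 library 1 and 1.38 without EC359 library 2.

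SOCS1, which blocks the JAK kinase domain directly (chromosome 16 from 11348274 to 11350061, minus strand), was barely detected. It had 12 and 18 reads in the vehicle libraries, 12 and 23 with EC359, 24 and 18 with vorinostat, and 42 and 33 in the combination, or 0.495 to 2.15 CPM. The combination libraries were the highest, and their log2 difference of 1.44 from vehicle did not pass (standard error 0.5, adjusted p = 0.0284). The standard errors of SOCS1 were 0.481 to 0.536 in the 5 comparisons, wider than those of the other members.

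Per kilobase of the canonical transcript, a scale that takes 1 transcript length for each gene, JAK1 was the most abundant member under vehicle. It had 73.4 CPM per kilobase, followed by STAT3 with 49.7. SOCS3 with 14.5, STAT6 with 14.5, PIM1 with 8.77 and STAT5B with 6.92 came next. JAK2 had 3.93, SOCS2 2.15 and SOCS1 0.568. These are levels of mRNA in the vehicle group and say nothing of the proteins. They also depend on the length taken, and other lengths were not tried. All annotated exons together span 13174 bases for JAK1 and 7298 for STAT6, against 5092 and 3963 in the canonical transcript. For SOCS3 both lengths are 2734 bases.

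On that scale SOCS3 held the largest share of the SOCS family in each group except EC359 alone. Its mean share was 31.3% under vehicle, 19.9% with EC359, 50.9% with vorinostat and 54.6% in the combination, and SOCS4 led in that group at 35.1%. SOCS1 stayed at or under 2.14% and SOCS2 at or under 5.13% in every library. In the JAK family JAK1 held 61.3% to 74.1% and JAK2 3.45% to 4.72% of each library, with TYK2 making up nearly all of the rest. PIM1 held 25.8% to 37.8% of the PIM mRNA.

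**Figure D3:**
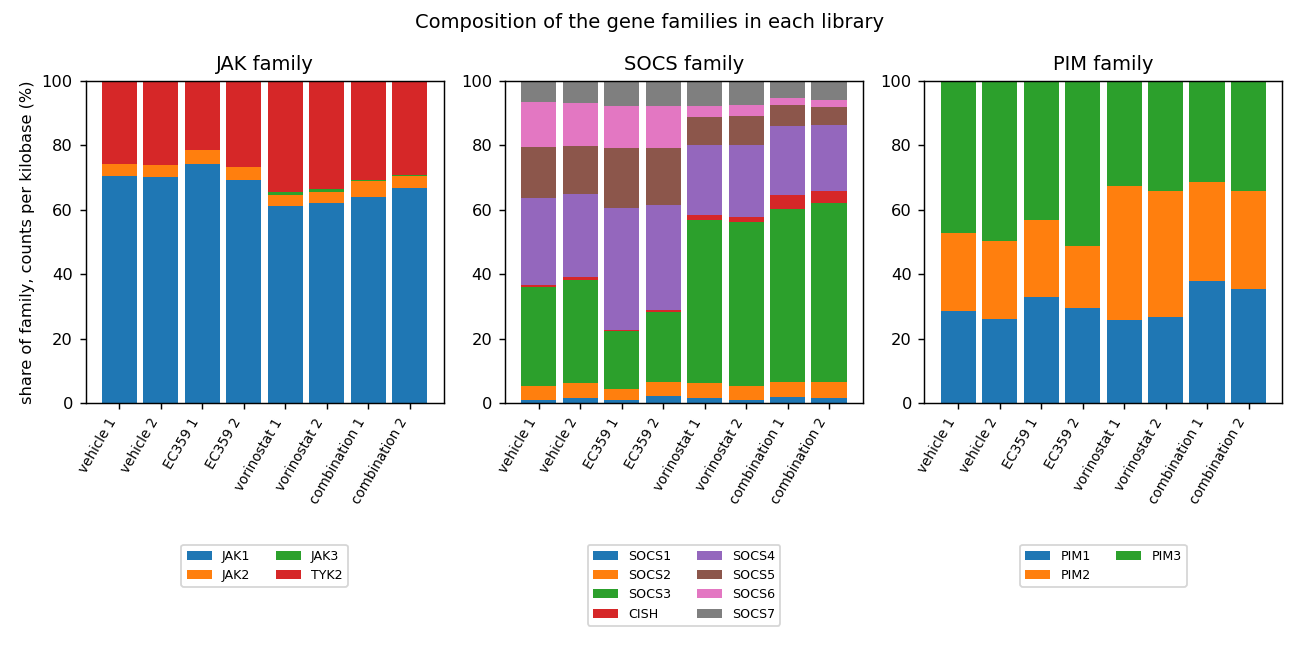
Share of each gene in its family (percent of summed counts per kilobase of canonical transcript), 1 bar per library. The JAK, SOCS and PIM families are shown, and SOCS3 fills 50.8% to 55.4% of the SOCS bars with vorinostat or the combination.

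Among the other genes of these families, STAT2, a factor of the interferon response, rose by 0.67 with vorinostat (adjusted p = 0.000335). In the combination against vehicle it gave 0.25, which did not pass (adjusted p = 0.0487). Nor did its difference of -0.42 on adding EC359 to vorinostat (adjusted p = 0.0148). STAT4 had 3 and 2 reads under vehicle, 0 and 0 with EC359, 51 and 45 with vorinostat and 36 and 46 in the combination, and STAT5A had 0 to 3 reads per library and was not tested.

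TYK2, the further kinase of gp130 receptors, rose by 0.50 in the combination against EC359 (adjusted p = 0.00263). It did not pass in the other 4 comparisons, at -0.31 with EC359 (adjusted p = 0.0848) and 0.32 with vorinostat (adjusted p = 0.0273). JAK3, a kinase of lymphoid receptors, had 1 to 9 reads in the 4 libraries without vorinostat and 53 to 98 in the 4 with it, and rose by 3.68 with vorinostat (adjusted p = 7.92e-05). CISH, the SOCS relative that STAT5 induces, was at 0.661 and 0.888 CPM under vehicle, 0.124 and 0.659 with EC359, 2.01 and 2.25 with vorinostat, and 8.04 and 7.30 in the combination. It rose by 1.84 on adding EC359 to vorinostat (adjusted p = 0.00735), and its interaction of 2.90 did not pass (adjusted p = 0.0412).

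Within the remaining SOCS genes, SOCS6 fell by 1.55 with vorinostat (adjusted p = 8.1e-06) and SOCS7 rose by 0.66 (adjusted p = 0.000971). SOCS4 rose by 0.47 on adding EC359 to vorinostat (adjusted p = 0.0052), and SOCS5 gave -0.35 with vorinostat (adjusted p = 0.0323). The kinases related to PIM1 both rose with vorinostat, PIM2 by 1.88 (adjusted p = 1.25e-06) and PIM3 by 0.60 (adjusted p = 0.00895), and EC359 added to vorinostat gave -0.03 and 0.34 (adjusted p = 0.84 and 0.147).

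Upstream of these kinases lie the cytokine receptor chains. LIFR, the target of EC359, was at 23.4 and 28.0 CPM under vehicle, 16.7 and 14.1 with EC359, 80.3 and 81.0 with vorinostat, and 118 and 119 in the combination. IL6ST was at 225 and 212, 339.8 and 272, 624 and 646, and 1836 and 1669 in the same order. Both were highest in the combination, and both had an interaction, of 1.29 for LIFR (adjusted p = 0.00354) and 0.98 for IL6ST (adjusted p = 0.00826). Of 17 tested chains of cytokine receptors that signal through JAKs, EC359 raised 3 and lowered 1 (3.81% and 4.01% of all tested genes). The rises were IL6R at 1.54, IL4R at 1.32 and OSMR at 0.81 (adjusted p = 0.00123, 7.13e-05 and 0.000888). The fall was that of LIFR itself, at -0.74 (adjusted p = 0.00464). Vorinostat raised 6 and lowered 5, against 26.2% and 25.9% of all genes. Adding EC359 to it raised 3, against 8.45% of all genes (OSMR by 1.61, IL6ST by 1.46, LIFR by 0.56; adjusted p = 1.96e-05, 4.19e-05 and 0.00821). The median of the list was -0.20 for EC359, 0.13 for vorinostat and -0.01 for adding EC359, beside -0.02, 0.03 and -0.01 over all genes. An interaction passed above 0 in 2 of the 17 (LIFR and IL6ST) and below 0 in 1, IL4R at -1.51 (adjusted p = 0.00104). Among all genes 1.62% passed above 0 and 0.482% below.

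Of 10 tested negative regulators outside the SOCS family (PIAS proteins, phosphatases and adaptors), EC359 raised SH2B3, an adaptor that restrains JAK2, by 1.70 (adjusted p = 9.14e-06) and no other of the 10 passed. Vorinostat raised 2 and lowered 2, no larger a share than the 26.2% and 25.9% of all genes, with PTPN1, a phosphatase of JAK2 and TYK2, up by 1.70 (adjusted p = 5.76e-07). Adding EC359 raised PTPN1 by 0.63 and CBL by 0.56 (adjusted p = 0.000879 and 0.00203), where 8.45% of all genes rose. For SH2B3 it gave 0.19, which did not pass (adjusted p = 0.179). SH2B3 had an interaction of -1.51 (adjusted p = 0.000455), the 1 of the 10 to pass, where 0.482% of all genes passed below 0. The median of the list was 0.29 for EC359, 0.06 for vorinostat and 0.08 for adding EC359, beside -0.02, 0.03 and -0.01 over all genes. PTPRC had 4 to 15 reads in the other groups' libraries and 0 in both combination libraries, and with these set to a floor of 3 reads per library the median for adding EC359 was also 0.08.

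The 15 textbook STAT targets besides SOCS3 and PIM1 went both ways. Like the receptor and regulator lists above, this list was drawn up with earlier results of these data known. Its shares and medians beside all genes are therefore description only. EC359 raised 7 and lowered 3, against 3.81% and 4.01% of all genes, with a median of 0.55 beside -0.02 over all genes, and the largest rises were those of VEGFA at 1.95, CEBPB at 1.58 and BCL6 at 1.43 (adjusted p = 1.44e-05, 0.000473 and 0.000466). Vorinostat raised 4 and lowered 7, against 26.2% and 25.9%, with a median of -0.12 beside 0.03, led by FOS at 3.18, CCND1 at -2.02 and CEBPD at -1.94 (adjusted p = 2.58e-07, 4.84e-07 and 1.84e-05). Adding EC359 to vorinostat raised 9 and lowered 2, against 8.45% and 5.26%, with a median of 0.91 beside -0.01 over all genes, and TIMP1, an inhibitor of matrix proteases, rose most, by 2.79 (adjusted p = 1.71e-07). An interaction passed above 0 in 3 of the 15 and below 0 in 1, against 1.62% and 0.482% of all genes.

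**Figure D4:**
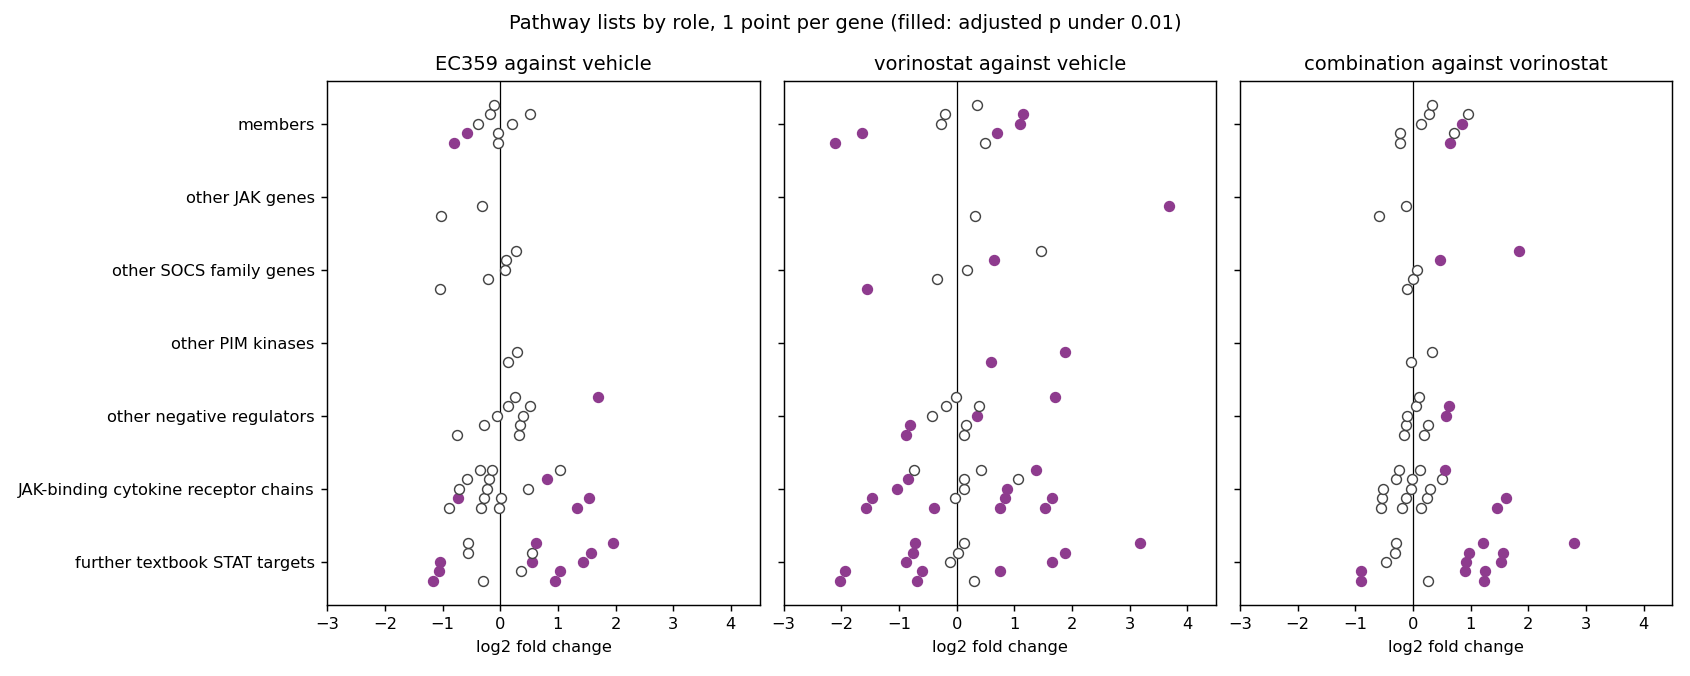
Log2 fold changes in 3 comparisons for the 9 members and the other tested genes of the pathway, 1 point per gene in rows by role (other STAT genes are not drawn); filled points passed an adjusted p of 0.01, and genes at 0 in a whole group compared are left out. With vorinostat the 2 other PIM kinases are filled and right of 0, and the STAT targets lie on both sides in each panel. The row labelled JAK-binding holds chains of receptors that signal through JAKs, not all of which bind JAKs themselves.

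Over the 8 libraries, the genes whose log2 CPM ran most like that of SOCS3 were MICALL2 (Pearson r = 0.997), VASN (0.991) and POLR2B (0.991), of 9753 genes searched. VASN had 6.09 and 6.21 CPM under vehicle, 1.61 and 1.98 with EC359, 46.6 and 46.0 with vorinostat, and 76.0 and 73.5 in the combination. Those most like STAT3 included NXN (0.996) and SLC22A17 (0.995), and NXN went from 65.3 and 70.4 under vehicle to 22.4 and 26.6, 190.1 and 194, and 131 and 125. These likenesses describe the 4 group means, since the points of a group lie together.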

How the data were processed

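RNA-seq counts of 8 BT-549 libraries, 2 each for vehicle, EC359, vorinostat and the combination, were analysed. The authors sequenced 50 bp single-end reads (bcl2fastq per the submitters' processing notes), aligned them to hg19 with TopHat2 2.0.8b and used HTSeq to count them on NCBI RefSeq genes. What they deposited is a list of raw counts by gene symbol for each library, not normalized. The HTSeq version and strand setting are not given in the sources used here. The 5 HTSeq summary lines were left out, and 85.1% to 88.1% of unique alignments fell on genes. In R 4.3.3, filterByExpr of edgeR 4.0.16 (minimum count 10 and minimum total 15, with the 4 groups) kept 13694 of 23228 genes. Counts were scaled by TMM (factors 0.955 to 1.03), and normalized CPM are counts relative to the scaled library size. All 8 libraries entered a quasi-likelihood fit with a mean for each group (common dispersion 0.0135, 4.98 prior degrees of freedom), and each comparison and the interaction were tested with Benjamini-Hochberg adjustment over all tested genes. The size of a log2 fold change over the square root of its F statistic gave its standard error.

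Alternatives used RLE or total-count scaling, DESeq2 1.42.0, other filters, fits on 4 libraries, the replicate number as a block, other thresholds, and leaving out each library in turn. A group left with 1 library was assumed to vary like the others. The procedure was tested on simulated data. The 9 genes and the pathway lists, drawn from general knowledge, were chosen with earlier results of these data known. All 9 members and the other JAK, STAT, SOCS and PIM genes are named, apart from results that are not reported here. From the other lists come LIFR, IL6ST and at most the 3 genes with the largest change per comparison among those passing an adjusted p of 0.01. Genes most like SOCS3 and STAT3 (at most 3 each) were taken by Pearson correlation of log2 CPM, at a mean log2 CPM of at least 3. PTPRC, STAT4 and genes at 0 in a group were given as reads. Promoter windows were read from GRCh37 at the starts of GENCODE canonical transcripts for genes with an entry in a RefSeq promoter table (8 of the 9 members). The motif TTCNNNNGAA, the same on both strands, was searched. The other experiments of the study were not analysed here. Plots were made with matplotlib 3.10.9 in Python 3.11.15.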

Additional observations from a re-analysis of the deposited data

Results flagged for a closer look

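The interaction of the drugs on SOCS3, 1.43 on the log2 scale (standard error 0.176, adjusted p = 0.00229, edgeR), drew attention because the effect of EC359 differed between cells without and with vorinostat: -0.79 against vehicle and 0.64 against vorinostat. Both EC359 libraries lay below both vehicle libraries, and both combination libraries above both vorinostat libraries. The EC359 pair, which enters this value, differed more between its libraries than any other pair, and the interaction was 1.25 without EC359 library 1 and 1.63 without EC359 library 2.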

How the results depend on the processing

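Of 54 member values (9 genes in 5 comparisons and the interaction), 22 passed in the fit reported, and among their alternative values 0 changed sign. Over all 801 alternative values, 741 kept direction and side of the threshold, 34 lost the call, 12 gained it and 14 changed sign. Sign changes were in values that did not pass: JAK1 in the combination against EC359 was -0.0155 with total counts and -0.0118 with no filter. With 1 library left out that value ran from -0.062 to 0.137. Likewise JAK2 ran from -0.157 to 0.33 in that comparison, from -0.174 to 0.314 in the combination against vehicle and from -0.168 to 0.101 in EC359 against vehicle, where STAT5B ran from -0.208 to 0.13 and SOCS1 from -0.494 to 0.729. The number of members changed by EC359 was 0 with only the 4 libraries compared and 0 with a fold over 1, and ran from 0 to 3 with 1 library left out. For the combination against vorinostat it was 1 with total counts and 0 with a fold over 1, and ran from 0 to 3. For the interaction it ran from 0 to 2. Alternatives were not computed for single genes outside the 9 or for shares and levels. Leave-out fits hold 7 libraries and fewer residual degrees of freedom. Those without an EC359 library also leave the pair that differed most out of the estimate of spread.

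Over all genes, EC359 changed 1071 against vehicle in the fit reported, 1664 in DESeq2, 243 with 4 libraries, 2283 at an adjusted p under 0.05, 502 with the fold and 350 to 3766 with 1 library left out. The combination against vorinostat gave 1877, then 4315 with 4 libraries, 3893 at 0.05, 582 with the fold and 349 to 4574. The interaction gave 288, then 713 in DESeq2, 925 at 0.05 and 56 to 1437. With the fold, 4123 of 7130 genes stayed for vorinostat, 4763 of 7718 for the combination and 4620 of 7642 for the combination against EC359. The labels number the libraries 1 and 2 without saying that a number marks a shared culture or day, and the departures from the group means correlated at -0.173 to 0.231 across genes between libraries of the same number. With the number fitted as a replicate block, the members changed stayed at 2, 5, 6, 2 and 6 in the 5 comparisons and 1 for the interaction, and SOCS3 had an interaction of 1.44 (adjusted p = 0.00381, edgeR). Over all genes the interaction then passed in 189.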
